A study of Mus musculus with 12 samples.

Results

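The collagen genes of MC38 tumors were taken as every gene whose symbol consists of Col, a type number, a and a chain number. This rule found 43 genes among the 18211 of the expression table. By the structures that their chains build, 11 encode fibrillar collagens, 6 encode type IV chains of basement membranes, 6 encode type VI chains of beaded filaments and 20 encode other collagens. MC38 is a mouse colorectal adenocarcinoma cell line, and the tumors grew under the skin of C57BL/6 mice, female and 5 weeks old when purchased. Of the 12 tumors, 3 came from each of 4 groups that were formed on day 7 after cell injection. CK received vehicle, PB-020 mice took 50 mg/kg of this IGF-1R inhibitor (against the receptor of insulin-like growth factor 1) orally each day, and anti-PD-1 mice had injections of 200 μg of an antibody against PD-1, an inhibitory receptor of T cells, on days 9, 12, 15 and 18. PB-020/anti-PD-1 mice had both agents. RNA of whole tumors was sequenced, so transcripts of the mouse tumor cells and of the mouse host cannot be separated.

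Collagens are trimeric proteins of the extracellular matrix. Fibrillar types I, III and V assemble into the fibers of connective tissue, type IV forms the network of basement membranes, and type VI forms beaded filaments close to cells. Many trimers combine chains from different genes: type I holds Col1a1 and Col1a2 chains, type III holds Col3a1 chains alone, type IV commonly holds Col4a1 and Col4a2 chains, and type VI commonly holds Col6a1, Col6a2 and Col6a3 chains. Fibroblasts are the best known source of fibrillar collagens in tumors, and other stromal cells and some tumor cells make collagens as well.

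The libraries were of nearly equal depth, with 16545394 to 17217035 expected counts each. Of 7 epithelial marker genes, 5 stayed under 10 counts in every tumor. Epcam, which marks epithelial cells, had between 2 and 17 counts, although the study's methods name an adenocarcinoma line. Cdh1, the gene of E-cadherin, was the exception with 114 to 285 counts. A pair of libraries stood apart. The summed level of 10 skeletal muscle markers was 1330 TPM (transcript share scaled to an equal total per library) in anti-PD-1 tumor 1 and 26.6 to 144 TPM in the other 11 tumors. The summed level of 6 adipocyte markers was 506 TPM in CK tumor 3 and 51.1 to 107 TPM elsewhere. Calls that ended without one or both of these libraries are named beside the results.

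Levels are given in FPKM, fragments scaled by transcript length and library depth, which allows genes of different length to be set side by side. Over the 12 tumors, 5 collagen genes had a mean of at least 100 FPKM, 17 at least 10 FPKM and 22 at least 1 FPKM. The leading gene was Col3a1 with a mean of 850.4 FPKM, followed by Col6a1 with 274 FPKM, Col1a2 with 191 FPKM, Col6a2 with 176 FPKM and Col1a1 with 124 FPKM. Col6a3, Col16a1, Col4a1, Col5a1 and Col4a2 came next, with means between 47.6 and 85.0 FPKM. At the other end, 8 genes did not pass the filter on low counts: Col4a3, Col4a6, Col9a2, Col10a1, Col19a1, Col22a1, Col25a1 and Col26a1. None of these 8 had more than 8 counts in any library. The other 35 were tested.

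**Figure D1:**
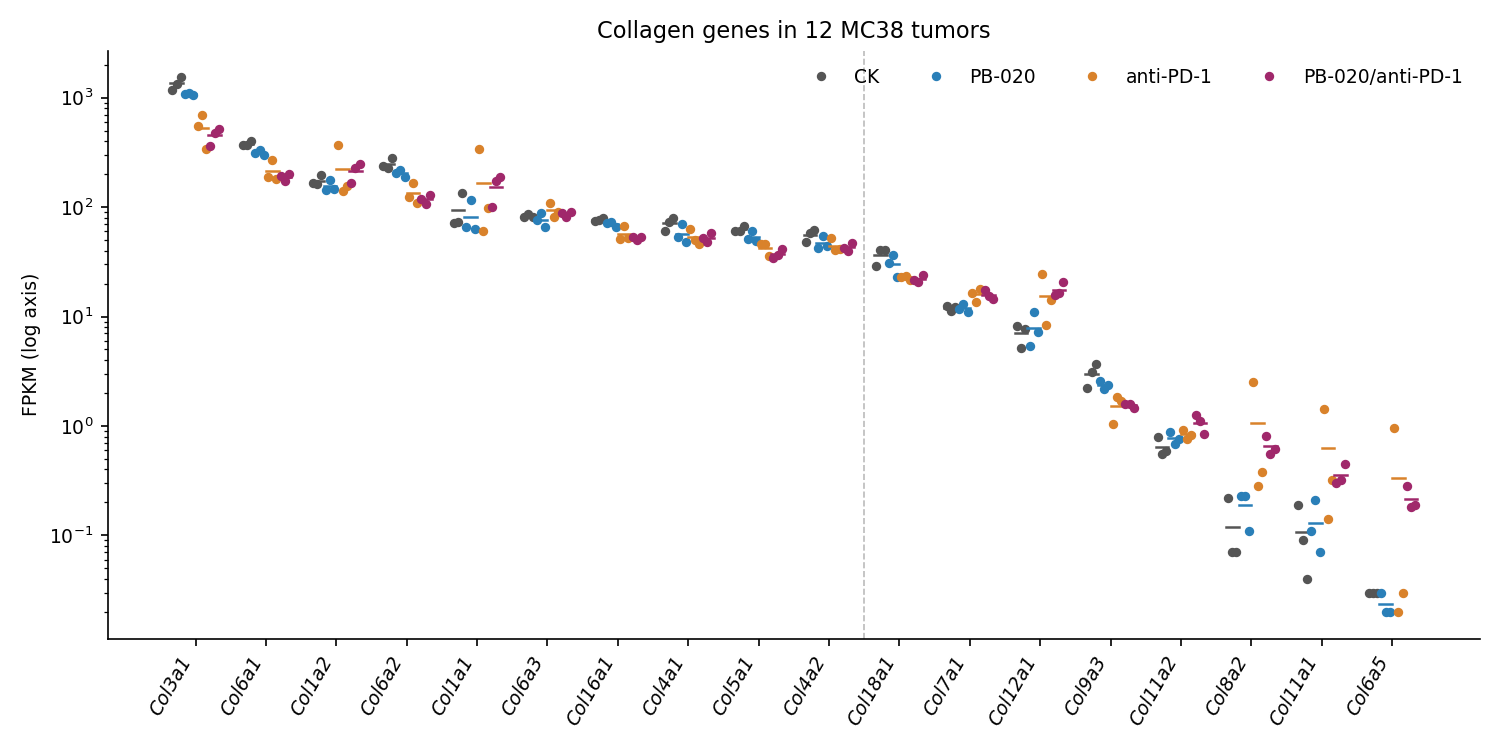
Level of 18 collagen genes in FPKM (log axis), with 1 point per tumor and a line at the mean of the 3 tumors of a group. Left of the dashed line are the 10 genes of highest mean level, and right of it the others called in a comparison with the antibody. Col3a1, Col6a1 and Col6a2 lie lower in both antibody groups, and anti-PD-1 tumor 1 is the highest point of Col1a1, Col1a2, Col12a1, Col8a2, Col11a1 and Col6a5.

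The genes that the results turn on lie in different places of the genome (build GRCm38.p6). Col3a1 spans chr1:45311538-45349706, and the gene for another fibrillar chain, Col5a2, begins 24624 bases after its end. Col6a1 (chr10:76708792-76726044) and Col6a2 (chr10:76595756-76623630) lie on the same strand, 85161 bases apart. Col1a1 is on chromosome 11 at 94936224 to 94953042 and Col1a2 on chromosome 6 at 4505618 to 4541543. RefSeq promoter sequences matched 34 of the 43 collagen genes, and Col1a1 was among the 9 without an entry. The 250 bases upstream of the start are shown for the abundant genes that fell, Col3a1, Col6a1 and Col6a2, and for Col1a2, which did not pass the test. Each reads 5′ to 3′ on the strand of its gene. Capitals mark matches to the letters of 3 promoter motifs, on either strand and at any distance from the start. A match alone does not show a working motif. The first is the TATA box, searched by the letters TATAAA. The next is the CCAAT box, searched by the letters of its name. The last is the GC box, searched by the letters GGGCGG, which appears reversed and complemented in the window of Col6a2. The windows are chr1:45311288-45311537 for Col3a1 (plus strand), chr6:4505368-4505617 for Col1a2 (plus strand), chr10:76726045-76726294 for Col6a1 (minus strand) and chr10:76623631-76623880 for Col6a2 (minus strand, the outermost of 2 listed starts).
Col3a1: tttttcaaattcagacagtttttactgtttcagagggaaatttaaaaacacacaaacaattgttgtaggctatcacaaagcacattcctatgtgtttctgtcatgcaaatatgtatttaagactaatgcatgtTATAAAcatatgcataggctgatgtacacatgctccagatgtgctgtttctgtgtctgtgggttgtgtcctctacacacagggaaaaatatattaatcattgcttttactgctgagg
Col1a2: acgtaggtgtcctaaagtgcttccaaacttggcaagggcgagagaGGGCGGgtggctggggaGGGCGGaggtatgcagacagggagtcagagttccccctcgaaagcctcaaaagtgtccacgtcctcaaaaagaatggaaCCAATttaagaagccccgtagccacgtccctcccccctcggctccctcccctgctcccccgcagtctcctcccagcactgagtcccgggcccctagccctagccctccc
Col6a1: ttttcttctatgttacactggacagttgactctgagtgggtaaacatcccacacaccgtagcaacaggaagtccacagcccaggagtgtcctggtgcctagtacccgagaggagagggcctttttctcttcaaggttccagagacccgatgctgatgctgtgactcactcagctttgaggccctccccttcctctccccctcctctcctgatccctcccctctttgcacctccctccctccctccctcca
Col6a2: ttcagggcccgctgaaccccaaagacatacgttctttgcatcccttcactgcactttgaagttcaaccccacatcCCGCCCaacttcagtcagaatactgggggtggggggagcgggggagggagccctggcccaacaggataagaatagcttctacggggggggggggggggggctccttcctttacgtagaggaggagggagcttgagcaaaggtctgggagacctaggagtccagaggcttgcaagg
The Col3a1 window held 1 match to TATAAA, away from the start, and none to the other motifs, and 35.2% of its bases were G or C. The Col1a2 window held 1 match to CCAAT and 2 to GGGCGG at 62.0% G or C. No match was found in the Col6a1 window (56.0% G or C), and 1 match to GGGCGG was found in that of Col6a2 (59.2% G or C). No motifs overlapped in these windows. Over 32851 promoters, the same window held a match to TATAAA in 12.4%, to CCAAT in 33.8% and to GGGCGG in 32.7%, and the median share of G and C was 52.4%. Of the 34 collagen genes with a promoter entry, 5 had TATAAA, 12 had CCAAT and 21 had GGGCGG at any of their listed starts. These are counts of genes, some with more than 1 start, so they cannot be set against the shares over single promoters.

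The first question was what the antibody changed, with or without the compound. In the antibody main effect, which is the mean log2 level of both antibody groups minus that of both groups without it, 7 collagen genes fell and 6 rose. In edgeR's quasi-likelihood test with Benjamini-Hochberg adjustment over all 13563 genes tested, 12.3% of all genes fell and 11.8% rose at an adjusted p under 0.05 (24.2% in either direction). The 7 that fell were the fibrillar genes Col3a1 and Col5a1, the type VI genes Col6a1 and Col6a2, and Col9a3, Col16a1 and Col18a1. The 6 that rose were Col7a1, Col12a1, Col11a2 and, at low counts, Col8a2, Col11a1 and Col6a5, the last of which passed the filter on low counts only through tumors with the antibody. All 7 falls were also called by DESeq2, by limma on log2(FPKM + 1) and with no filter on low counts. The rises depended more on the method, since limma called 2 (Col7a1 and Col12a1) and the fit with no filter called 3 (these and Col8a2). DESeq2 called 7, without Col6a5 and with Col14a1 and Col6a6, which also passed the filter only through tumors with the antibody. Of all genes tested, limma called 3076, the fit with no filter 2869 and DESeq2 3447. Without both tumors that stood apart, 8 fell and 7 rose, and Col11a2 was no longer called (adjusted p 0.091 in edgeR's test). Over all genes 2887 of 13620 were then called, beside 3279 of 13563 with all tumors. The 6 antibody tumors lay entirely below the other 6 for 5 collagen genes, Col3a1, Col5a1, Col6a1, Col6a2 and Col9a3 (4.5% of all genes tested did so), and entirely above for Col7a1 and Col8a2 (4.1%). The median log2 change of the 35 genes was 0.11, and that of all genes tested was 0.00. In bulk tumor RNA, fewer cells that express a gene and less RNA per cell cannot be told apart.

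Col3a1, the chain of type III collagen, was at 1177, 1339.6 and 1531 FPKM in CK and at 1071, 1097 and 1049 FPKM in PB-020. It was at 548, 699.8 and 338 FPKM in anti-PD-1 and at 364, 478 and 513 FPKM in PB-020/anti-PD-1. Every tumor with the antibody lay below every tumor without it. The group means were 1349 ± 177 in CK, 1072 ± 24.2 with PB-020, 528.5 ± 182 with anti-PD-1 and 452 ± 78.0 with both agents (FPKM, SD, n = 3 each). The antibody main effect was -1.29 (SE 0.15) on the log2 scale, a ratio of 0.408, with an adjusted p of 0.00059 in edgeR's test. Without both tumors that stood apart it was -1.25, with an adjusted p of 0.0066 in the same test.

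Of the type VI genes, Col6a1 and Col6a2 fell, Col6a5 was called at low counts and the other 3 were not called by edgeR's test. Col6a5 passed the filter on low counts only through tumors with the antibody, so its call is given as a description. Col6a1 was at 372, 373 and 399 FPKM in CK, 315, 333 and 298 FPKM with PB-020, 188.5, 269.65 and 180.1 FPKM with anti-PD-1 and 191, 172 and 200.02 FPKM with both agents. Col6a2 was at 239.8, 226 and 279 FPKM in CK, 205, 219 and 189 FPKM with PB-020, 124, 168 and 109 FPKM with anti-PD-1 and 117, 107 and 129 FPKM with both agents. For both genes the 6 tumors with the antibody lay below the 6 without it. The antibody main effect was -0.79 (SE 0.09) for Col6a1 and -0.84 (SE 0.10) for Col6a2, with adjusted p of 0.00038 and 0.00044 in edgeR's test. Col6a3, which encodes the longest of the common type VI chains, was at 80.6 to 86.6 FPKM in CK and at 81.5 to 90.3 FPKM in PB-020/anti-PD-1. Its main effect was 0.18 (SE 0.08) with an adjusted p of 0.11 in edgeR's test, and its groups overlapped. Without PB-020 tumor 2 or anti-PD-1 tumor 2 it passed narrowly, at 0.23 and 0.22 with adjusted p of 0.044 and 0.045. Col6a4 had a main effect of -0.12 (SE 0.30), also without a call.

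The other genes that fell had smaller changes or lower levels. Col5a1, a chain of type V collagen, which joins type I in fibers, was at 60.5, 61.0 and 67.4 FPKM in CK, 51.6, 60.1 and 48.9 with PB-020, 45.7, 46.2 and 35.45 with anti-PD-1 and 34.3, 36.5 and 41.2 with both agents. Its antibody groups lay below all other tumors, with a main effect of -0.53 (SE 0.08). The adjusted p in edgeR's test was 0.00082. Col16a1, a collagen that associates with fibrils, was at 74.7 to 78.8 FPKM in CK, 66.0 to 72.3 with PB-020, 51.3 to 66.6 with anti-PD-1 and 50.2 to 53.7 with both agents. Its main effect was -0.42 (SE 0.06), and anti-PD-1 tumor 2 lay above the lowest PB-020 tumor. Col18a1, whose cleaved end is endostatin, was at 28.6 to 40.7 FPKM in CK, 23.1 to 36.7 with PB-020, 21.4 to 23.4 with anti-PD-1 and 20.8 to 24.2 with both agents. Its main effect was -0.55 (SE 0.11), and the antibody tumors overlapped PB-020 tumor 3. Col9a3, a type IX chain known from cartilage, was at 2.24, 3.08 and 3.68 FPKM in CK, 2.57, 2.17 and 2.36 with PB-020, 1.05, 1.82 and 1.69 with anti-PD-1 and 1.59, 1.57 and 1.46 with both agents. The antibody tumors lay below all others, with a main effect of -0.80 (SE 0.16). Of the exonic bases of Col9a3, 6.07% are shared with Tcfl5 on the opposite strand, and the strand setting of the counting was not given in the sources used here.

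The genes that rose were of lower level. Col7a1, which forms the anchoring fibrils beneath epithelia, was at 12.35, 11.2 and 12.2 FPKM in CK, 11.7, 13.1 and 10.9 with PB-020, 16.4, 13.7 and 17.7 with anti-PD-1 and 17.3, 15.3 and 14.4 with both agents. All 6 antibody tumors lay above the other 6, with a main effect of 0.42 (SE 0.07) and an adjusted p of 0.0018 in edgeR's test. Col12a1, which binds the surface of fibrils, was at 8.26, 5.14 and 7.71 FPKM in CK, 5.37, 10.89 and 7.23 with PB-020, 24.25, 8.30 and 14.01 with anti-PD-1 and 15.7, 16.3 and 20.5 with both agents. Anti-PD-1 tumor 2 lay within the range of PB-020. The main effect of Col12a1 was 1.17 (SE 0.27) with an adjusted p of 0.017, and 0.95 with 0.027 without anti-PD-1 tumor 1, both in edgeR's test. Col11a2, a minor fibrillar chain, was at 0.55 to 0.80 FPKM in CK and at 0.84 to 1.27 FPKM in PB-020/anti-PD-1. Its main effect was 0.43 (SE 0.14) with an adjusted p of 0.045 in edgeR's test, and leaving out any of 9 of the 12 libraries raised that p to between 0.054 and 0.11.

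Col8a2, Col11a1 and Col6a5 were called at few counts. Of the 35 collagen genes tested, 32 passed the filter on low counts both in the tumors with the antibody and in those without it. Col6a5 and Col6a6 reached the filter's minimum in no tumor without antibody, so they passed only through the groups where they were high, and their values are given as a description. Col8a2, a short-chain collagen, had 16, 6 and 5 counts in CK, 16, 16 and 9 with PB-020, 177, 20 and 27 with anti-PD-1 and 57, 39 and 43 with both agents. All 6 antibody tumors lay above the other 6. Its main effect was 2.40 (SE 0.57), and 1.58 without anti-PD-1 tumor 1, with adjusted p of 0.014 and 0.0021 in edgeR's test. Col11a1, a fibrillar chain, had 22, 7 and 5 counts in CK, 13, 25 and 7 with PB-020, 172, 16 and 38 with anti-PD-1 and 38, 38 and 54 with both agents, where only anti-PD-1 tumor 2 fell within the range of the tumors without antibody. Col6a5, a further type VI chain, had 5, 4 and 5 counts in CK, 5, 3 and 3 with PB-020, 149, 3 and 4 with anti-PD-1 and 43, 28 and 30 with both agents. Its 149 counts stood in the tumor with the high muscle markers, and the other anti-PD-1 tumors were at the level of CK. The main effect of Col11a1 was 2.13 (SE 0.61), and 1.40 without anti-PD-1 tumor 1, with adjusted p of 0.031 and 0.026 in edgeR's test. Leaving out any of 7 other libraries ended its call (highest adjusted p 0.074). The fitted change of Col6a5 was 3.31 (SE 0.94), and 1.40 without anti-PD-1 tumor 1. Col6a6 had 37 counts in anti-PD-1 tumor 1, 0 and 2 in tumors 2 and 3 of that group and 5 to 21 in PB-020/anti-PD-1, and was called by DESeq2 but not by edgeR's test. The part of host muscle tissue in these values was not tested.

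Type I collagen, the main fiber protein of connective tissue, did not pass edgeR's test. Col1a1 was at 72.1, 72.3 and 135 FPKM in CK, 66.4, 116 and 63.7 with PB-020, 339.7, 60.35 and 98.0 with anti-PD-1 and 99.9, 172 and 187 with both agents. Col1a2 was at 165, 162 and 195 FPKM in CK, 143, 177 and 147 with PB-020, 369, 142 and 156 with anti-PD-1 and 168, 228 and 246 with both agents. The groups overlapped for both genes, and the highest value of each was in anti-PD-1 tumor 1. The antibody main effects were 0.87 (SE 0.44) for Col1a1 and 0.41 (SE 0.23) for Col1a2, with adjusted p of 0.18 and 0.22 in edgeR's test. Without anti-PD-1 tumor 1 these were 0.35 and 0.13, and the change of anti-PD-1 against CK turned from 0.85 to -0.20 for Col1a1 and from 0.37 to -0.19 for Col1a2. Without both tumors that stood apart, Col1a2 was higher with both agents than with PB-020 alone, by 0.46 (adjusted p 0.044 in edgeR's test). Col5a2, the neighbour of Col3a1, had a main effect of 0.11 (SE 0.16), and Col5a3 one of -0.24 (SE 0.11), without a call by edgeR's test. Without PB-020 tumor 3, Col5a3 passed at -0.31 (0.032).

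With all 12 tumors and the filter on low counts at a minimum count of 10, edgeR's test called no type IV gene. DESeq2 called 2 type IV genes. Col4a1 and Col4a2, the chains found in most basement membranes, lie head to head on chromosome 8 and overlap by 85 bases. Col4a1 was at 60.8, 73.7 and 78.9 FPKM in CK, 52.85, 69.9 and 48.4 with PB-020, 62.7, 50.02 and 45.6 with anti-PD-1 and 52.1, 47.8 and 58.0 with both agents. Its tumors with both agents lay below CK, and those of the single agents overlapped CK. The antibody main effects were -0.27 (SE 0.10) for Col4a1 and -0.22 (SE 0.08) for Col4a2, with adjusted p of 0.083 and 0.068 in edgeR's test and 0.037 and 0.041 in DESeq2. With both agents against CK, DESeq2 also called both as lowered (-0.41 and -0.35, both with an adjusted p of 0.023). With anti-PD-1 alone it called Col4a1 (0.032). In edgeR's test, a fit of only the groups compared called both genes as lowered with both agents against CK (0.0093 and 0.016). With a strict filter (at least 50 counts in at least 3 libraries) and all 12 tumors, edgeR's test called Col4a2 in that comparison (-0.35, adjusted p 0.048). Without anti-PD-1 tumor 1, Col4a1 and Col4a2 passed in the antibody main effect, at -0.33 and -0.28 with adjusted p of 0.036 and 0.02 in edgeR's test. Of the other type IV genes, Col4a5 stood at 1.08 to 1.90 FPKM, Col4a4 was barely detected, and Col4a3 and Col4a6 were not tested.

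**Figure D2:**
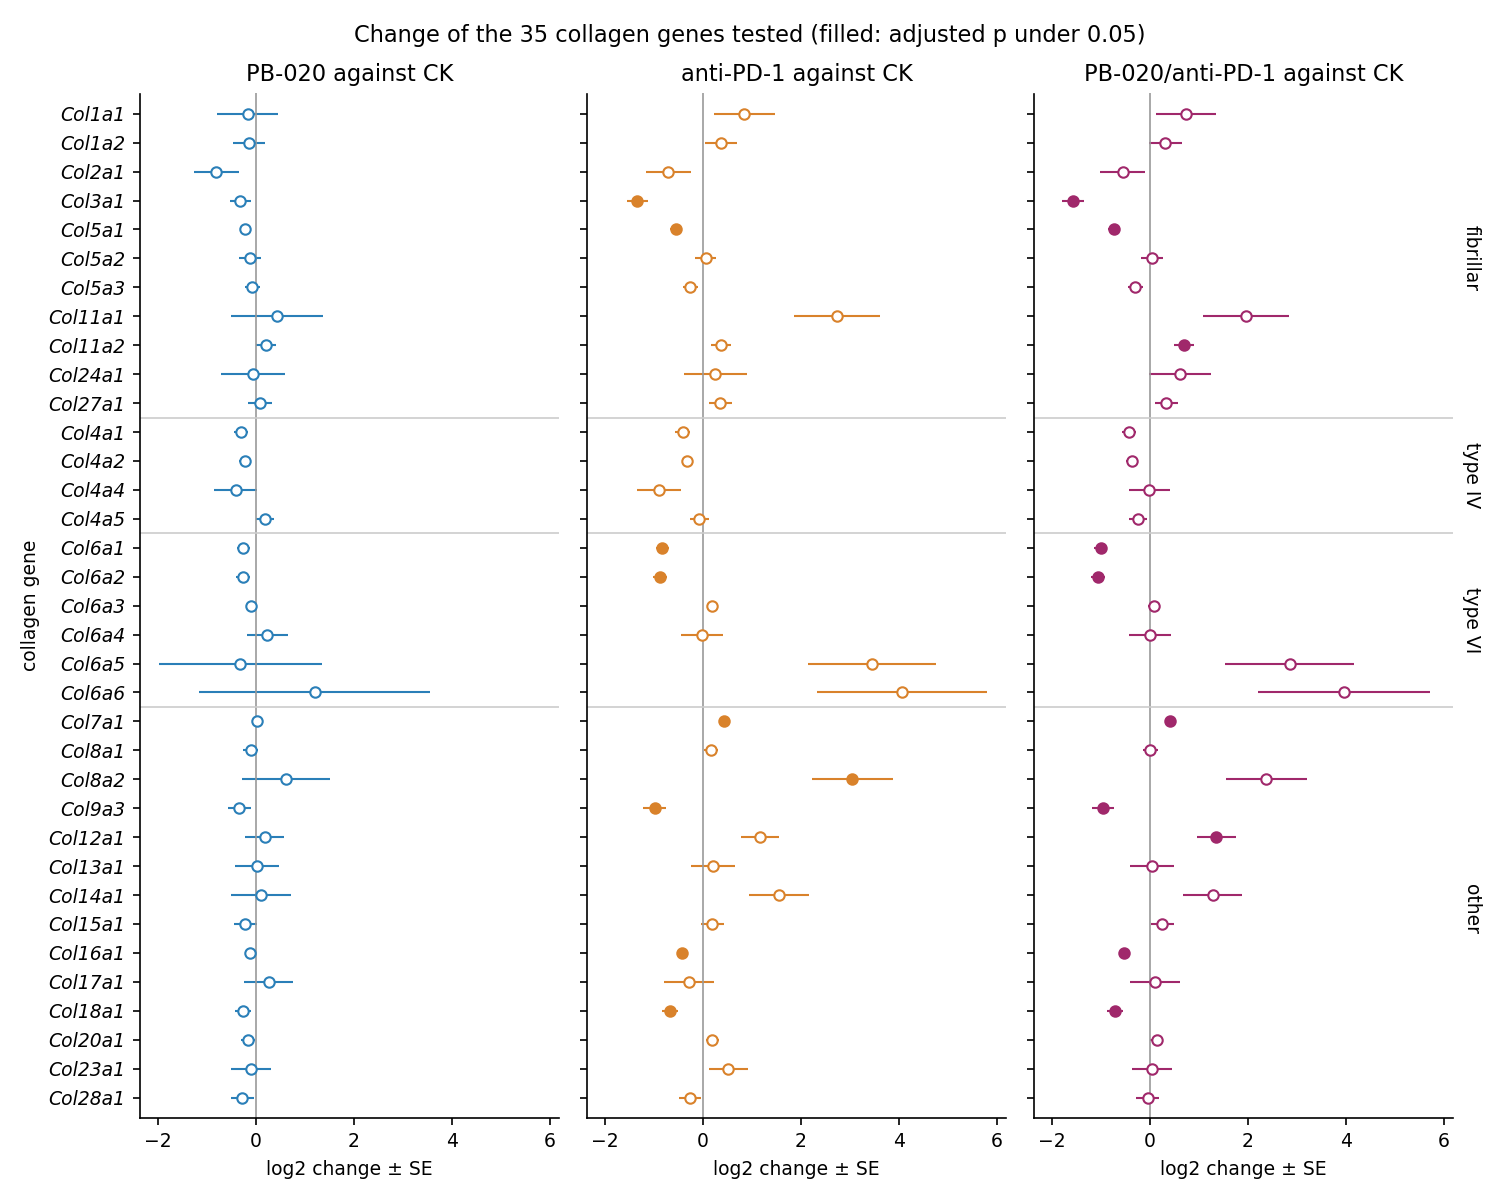
Log2 change with its standard error for the 35 collagen genes tested in each treated group against CK, ordered by class. Filled points have an adjusted p under 0.05 in edgeR's quasi-likelihood test. No point is filled for PB-020, 9 are for anti-PD-1 and 10 are for PB-020/anti-PD-1.

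The next question was what each treatment changed against vehicle. With PB-020 alone, 0 of the 35 collagen genes were called by edgeR's test, 0 by DESeq2 and 0 by limma on FPKM, and 0 had an unadjusted p under 0.05. Of all genes tested, 0% were called and 5.46% had an unadjusted p under 0.05. All 3 PB-020 tumors lay below all 3 CK tumors for Col3a1, Col6a1, Col6a2, Col16a1 and Col20a1, a count of 5 genes where 6.47% of all genes tested did so, and no collagen gene lay above (7.78% of all genes). The changes against CK were -0.31 (SE 0.21) for Col3a1, -0.25 (SE 0.13) for Col6a1 and -0.26 (SE 0.14) for Col6a2, with adjusted p of 0.89, 0.87 and 0.87 in edgeR's test. In the PB-020 main effect, which uses all 12 tumors, 0 collagen genes were called by edgeR's test, DESeq2 or limma, and 0% of all genes by edgeR's test. At an unadjusted p under 0.05 the genes were Col5a1, Col6a1 and Col6a2, at -0.20, -0.22 and -0.22, where 10.9% of all genes tested had such a p.

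With anti-PD-1 alone, 7 collagen genes fell and 2 rose against CK, beside 4.08% and 4.18% of all genes tested (8.26% in either direction). These 9 calls were made in the fit of all 4 groups, and a fit of only the anti-PD-1 and CK tumors called 0 collagen genes and 3 genes in all, with adjusted p from 0.058 for Col6a1 to 0.18 for Col8a2. With both agents, 7 fell and 3 rose, beside 9.6% and 8.35% of all genes tested (17.9% in either direction). Against CK, the tumors did not overlap for 8 lower and 3 higher collagen genes with anti-PD-1. Of all genes tested, 15.2% and 13.9% were so. With both agents this held for 10 lower and 9 higher collagen genes, where 21.2% and 19.6% of all genes were so. The 9 higher genes include Col6a5 and Col6a6, which passed the filter on low counts only through tumors with the antibody. The CK tumors are shared by these comparisons, so their values are given side by side and not as independent evidence. Col3a1 changed by -1.33 (SE 0.22) with anti-PD-1 and by -1.56 (SE 0.22) with both, Col6a1 by -0.82 (SE 0.13) and -1.0 (SE 0.13), and Col6a2 by -0.87 (SE 0.14) and -1.06 (SE 0.14). Col5a1 changed by -0.55 (SE 0.11) and -0.73 (SE 0.11), Col16a1 by -0.42 (SE 0.09) and -0.53 (SE 0.09), Col18a1 by -0.67 (SE 0.16) and -0.70 (SE 0.16), and Col9a3 by -0.98 (SE 0.23) and -0.95 (SE 0.23). Each of these 7 passed in both comparisons. Col7a1 rose in both, by 0.44 (SE 0.10) and 0.42 (SE 0.10). Col8a2 rose with anti-PD-1 by 3.05 (SE 0.82), and Col11a2 by 0.70 (SE 0.20) and Col12a1 by 1.36 (SE 0.39) with both agents. The 7 falls in the combination had adjusted p from 0.0015 to 0.016 and the 3 rises from 0.014 to 0.044 in edgeR's test.

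These calls differed in how much they rested on single libraries. With both agents, Col3a1, Col5a1, Col6a1, Col6a2 and Col16a1 stayed called under all 21 alternatives tried. Col7a1 and Col9a3 lost the call without CK tumor 2 (adjusted p 0.068 and 0.057 in edgeR's test) or combination tumor 1 (0.067 and 0.051), and Col9a3 also without CK tumor 3 (0.061). Col18a1 lost it without CK tumor 2 or 3 or combination tumor 1 or 2 (0.054 to 0.067), and Col11a2 without the same tumors (0.086 to 0.13). Col12a1 lost it without any of 8 libraries (0.061 to 0.14). Without anti-PD-1 tumor 1, 9 genes fell and 8 rose with both agents, where 3344 of all 13680 genes tested were called. Without both tumors that stood apart, 6 fell and 7 rose, where 2808 of all 13620 were called. Both of these counts of rises include Col6a5 and Col6a6, which passed the filter on low counts only through tumors with the antibody. Col18a1 and Col11a2 were then no longer called (0.072 and 0.053). With all tumors, 2434 of all 13563 genes were called. With anti-PD-1 alone, Col3a1, Col6a1 and Col6a2 were called without each library in turn in the fit of all groups. Col5a1 lost the call without CK tumor 2 (0.051), Col16a1 without CK tumor 2 or anti-PD-1 tumor 3 (0.072 and 0.077), and Col7a1 without CK tumor 2 or 3 or anti-PD-1 tumor 3 (0.051 to 0.097). Col9a3 lost it without CK tumor 2 or 3 or anti-PD-1 tumor 3 (0.057 to 0.089), and Col18a1 without CK tumor 2 or 3 or anti-PD-1 tumor 1 or 3 (0.085 to 0.12). Col8a2 lost it without any library but anti-PD-1 tumor 2 (0.06 to 0.17), and its change was 1.41 without anti-PD-1 tumor 1. Without both tumors that stood apart, 3 genes were called with anti-PD-1, namely Col5a1, Col6a1 and Col6a2. Over all genes 459 were then called, beside 1120 with all tumors. Col3a1 had a change of -1.26 with an adjusted p of 0.083 in edgeR's test.

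When the combination was compared with the antibody alone, 0 collagen genes were called by edgeR's test, DESeq2 or limma, 0 had an unadjusted p under 0.05, and the lowest adjusted p was 0.71. Of all genes tested, 0% were called and 7.26% had an unadjusted p under 0.05. The differences were -0.23 (SE 0.21) for Col3a1, -0.18 (SE 0.13) for Col6a1 and -0.19 (SE 0.14) for Col6a2. Without anti-PD-1 tumor 1, Col6a5 was called as higher with both agents, where 2 of all genes tested were called. This gene passed the filter on low counts only through tumors with the antibody, so the call is given as a description. Its counts were 149, 3 and 4 in the anti-PD-1 tumors and 43, 28 and 30 in the combination. Between the combination and PB-020 alone, Col3a1 changed by -1.25 (SE 0.22), Col6a1 by -0.75 (SE 0.13), Col6a2 by -0.80 (SE 0.14) and Col16a1 by -0.42 (SE 0.09), and Col5a1 fell as well, so that 5 collagen genes fell beside 2.11% of all genes tested. Col7a1 was the 1 collagen gene that rose, beside 1.25% of all genes tested (3.35% were called in either direction). Without PB-020 tumor 1 or 3, or combination tumor 1 or 2, 0 of these 6 genes were called, with adjusted p of 0.076 to 0.18 in edgeR's test. Over all genes tested, these fits called 1, 11, 0 and 2, so the loss was not particular to the collagen genes. Col3a1 changed by -1.12 to -1.30 in them, and Col7a1 by 0.32 to 0.41. Col7a1 also lost its call without any CK tumor or combination tumor 3 (0.056 to 0.063), Col5a1 without PB-020 tumor 2 (0.057), and Col16a1 without PB-020 tumor 2 (0.063) or combination tumor 3 (0.068). The interaction, which asks whether the log2 changes of both agents add up, had 0 calls among the collagen genes by edgeR's test, DESeq2 or limma and 0 unadjusted p under 0.05, where 0% of all genes were called and 2.29% had such a p. It was 0.08 (SE 0.30) for Col3a1, 0.07 (SE 0.18) for Col6a1 and 0.05 (SE 0.88) for Col1a1.

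The sum of all collagen transcripts followed the abundant genes. It was 4493, 4985 and 5590 TPM in CK, 3898, 4396 and 3708 with PB-020, 4082, 3213 and 2302 with anti-PD-1 and 2446, 2640 and 3111 with both agents. The tumors of PB-020/anti-PD-1 lay below those of CK and PB-020, and anti-PD-1 tumor 1 lay within the range of PB-020. The means were 5023 ± 549 in CK, 4001 ± 355 with PB-020, 3199 ± 890.1 with anti-PD-1 and 2732 ± 342 with both agents (TPM, SD, n = 3 each), which is 0.797, 0.637 and 0.544 of CK for the treated groups. Col3a1 made up 48.35% of collagen TPM in CK, 46.55% with PB-020, 30.1% with anti-PD-1 and 28.4% with both agents. Col1a1 and Col1a2 together made up 9.52%, 10.2%, 21.3% and 22.96%, with 33.3%, 11.3% and 19.3% in the anti-PD-1 tumors. Without Col3a1, the sum of the other collagen genes in PB-020/anti-PD-1 was 0.754 of CK. These sums were not tested.

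**Figure D3:**
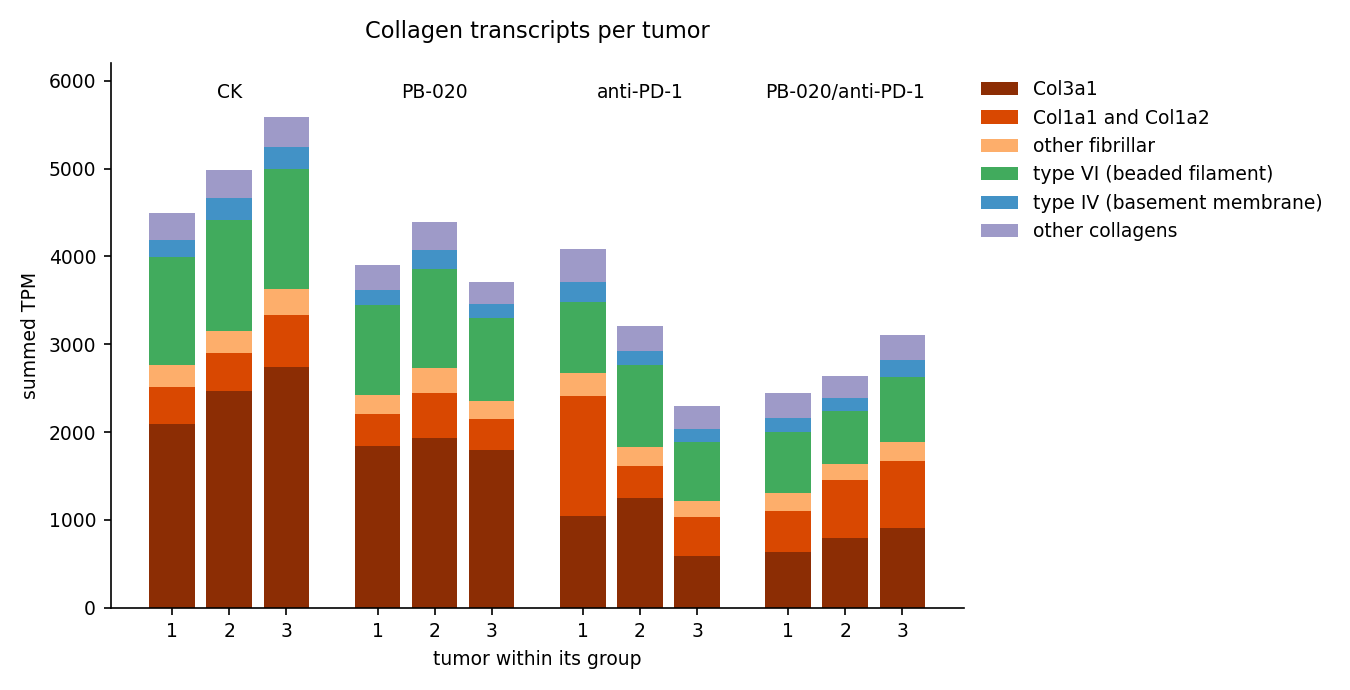
Summed TPM of the 43 collagen genes in each tumor, stacked by gene or class. The total is 4493 to 5590 in CK and 2446 to 3111 in PB-020/anti-PD-1, and the Col3a1 segment shrinks most, while anti-PD-1 tumor 1 has the tallest segment of Col1a1 and Col1a2.

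Ratios between chains showed which genes moved together, as a description without a test. The FPKM ratio of Col6a2 to Col6a1 stayed between 0.606 and 0.699 in the 12 tumors, and that of Col4a2 to Col4a1 between 0.775 and 0.913. The ratio of Col6a3 to Col6a1 was 0.217, 0.232 and 0.202 in CK, 0.242, 0.265 and 0.223 with PB-020, 0.581, 0.303 and 0.506 with anti-PD-1 and 0.458, 0.473 and 0.451 with both agents. It was higher in every tumor with the antibody than in any without. Col3a1 exceeded Col1a1 by a ratio of 16.3, 18.5 and 11.3 in CK, 16.1, 9.5 and 16.5 with PB-020, 1.61, 11.6 and 3.44 with anti-PD-1 and 3.64, 2.78 and 2.74 with both agents. Anti-PD-1 tumor 2 lay within the range of the tumors without antibody, and the other 5 antibody tumors lay below it. The ratio of Col5a2 to Col5a1 was 0.475 to 0.585 in CK, 0.512 to 0.586 with PB-020, 0.557 to 1.07 with anti-PD-1 and 0.844 to 0.950 with both agents.

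**Figure D4:**
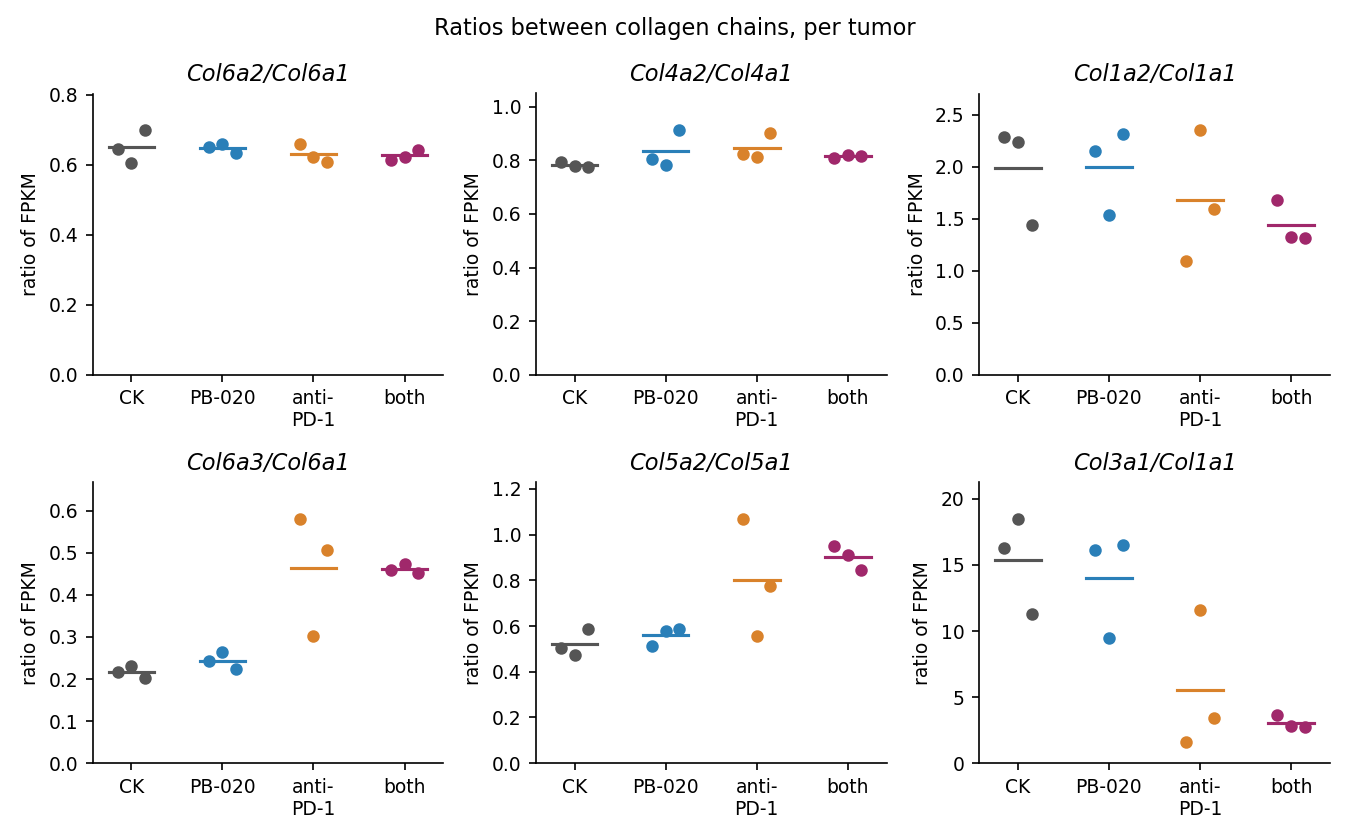
Ratio of FPKM between 2 collagen chains in each tumor (points) with the mean of the 3 tumors of a group (lines), where both stands for PB-020/anti-PD-1. Col6a2/Col6a1 and Col4a2/Col4a1 are flat over the 4 groups, Col6a3/Col6a1 is higher in all antibody tumors, and of the antibody tumors anti-PD-1 tumor 2 lies nearest to CK in Col6a3/Col6a1, Col5a2/Col5a1 and Col3a1/Col1a1.

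The remaining collagen genes did not pass edgeR's test in any of these comparisons with all 12 tumors and a minimum count of 10 in the filter. Of the 35 tested, 13 were not called in any comparison under any alternative tried. Col8a1, Col5a3, Col5a2, Col15a1 and Col14a1 were the abundant ones, at means of 28.6, 44.8, 32.6, 10.75 and 5.08 FPKM over the 12 tumors. Col14a1, which binds fibrils like Col12a1, was at 2.35 to 2.97 FPKM in CK, 2.37 to 3.54 with PB-020, 16.97, 2.82 and 4.21 with anti-PD-1 and 4.98, 7.03 and 7.87 with both agents. Its main effect of 1.36 (SE 0.43) missed the threshold, and without anti-PD-1 tumor 1 it was 0.78 with an adjusted p of 0.013 in edgeR's test. With the strict filter and all tumors, edgeR's test called Col14a1 at 1.36 (adjusted p 0.047). DESeq2 called it with all tumors (0.0064). A fit of only the groups compared called Col14a1 with both agents against CK (0.004) and against PB-020 (0.024), Col5a3 as lowered against CK (0.028), and Col15a1 as raised against PB-020 (0.01). The others, Col2a1, Col4a5, Col13a1, Col17a1, Col20a1, Col23a1, Col24a1, Col27a1 and Col28a1, had means of 0.137 to 1.37 FPKM.

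Genes that process collagen were read from lists of the pathway. Of 29 genes of synthesis and secretion tested, 11 fell and 0 rose in PB-020/anti-PD-1 against CK, where 9.6% of all genes tested fell and 8.35% rose, and the median log2 change was -0.25, beside -0.003 over all genes tested. Among them, Bmp1, a protease that removes the end of procollagens, fell by 0.43, Sec24d, a coat protein of the vesicles that carry procollagen, fell by 0.53, and Fkbp10, a collagen chaperone, fell by 0.45. P3h1 and P3h3, which belong to the prolyl 3-hydroxylase family, fell by 0.43 and 0.34, and Mia3, which loads procollagen for export, fell by 0.30. Serpinh1, the abundant collagen chaperone HSP47, changed by -0.17 (SE 0.11) and was not called. Of 7 crosslinking genes, the lysyl oxidase relative Loxl2 fell by 0.68 and Pxdn, which crosslinks type IV collagen, fell by 0.57. Loxl4 rose by 0.49, and Lox itself stood at 0.32 (SE 0.52) without a call. Of these, the abundant crosslinking genes Tgm2 and Loxl1 were at -0.11 (SE 0.15) and -0.32 (SE 0.14), without a call.

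Of 14 degradation genes tested, 4 fell and 0 rose in the same comparison, beside 9.6% and 8.35% of all genes tested. The gelatinase Mmp2 was at 451, 526 and 466 FPKM in CK, 431, 328 and 451 with PB-020, 267, 319 and 256 with anti-PD-1 and 231, 221 and 259 with both agents. All its antibody tumors lay below the others, and against CK it changed by -1.0 (SE 0.12) with both agents, with an adjusted p of 0.0012 in edgeR's test. Mrc2, which takes up collagen fragments, fell by 0.83, the membrane protease Mmp14 by 0.54 and the inhibitor Timp2 by 0.44. Of 11 receptor genes tested, 5 fell and 2 rose, beside the same shares of all genes. Ddr1, a tyrosine kinase that binds collagen, rose by 0.38 and its relative Ddr2 fell by 0.33, and the inhibitory immune receptor Lair1 rose by 0.42. Adgrg1, Adgrg6 and Itga10 also fell. Their means were 7.86, 3.16 and 1.10 FPKM in CK and 5.56, 2.18 and 0.647 FPKM with both agents. Mrc2, given above, was the other receptor gene that fell. The integrin subunit Itgb1, the most abundant receptor gene listed, changed by -0.12 (SE 0.09) without a call. With anti-PD-1 alone the counts were 8 fallen and 0 risen for synthesis, 2 and 1 for crosslinking, 3 and 0 for degradation and 2 and 1 for receptors, where 4.08% of all genes tested fell and 4.18% rose. These counts come from the fit of all groups, and the fit of only the anti-PD-1 and CK tumors called 3 genes in all. With PB-020 alone they were 0 in all 4 lists, where 0% of all genes tested were called.

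**Figure D5:**
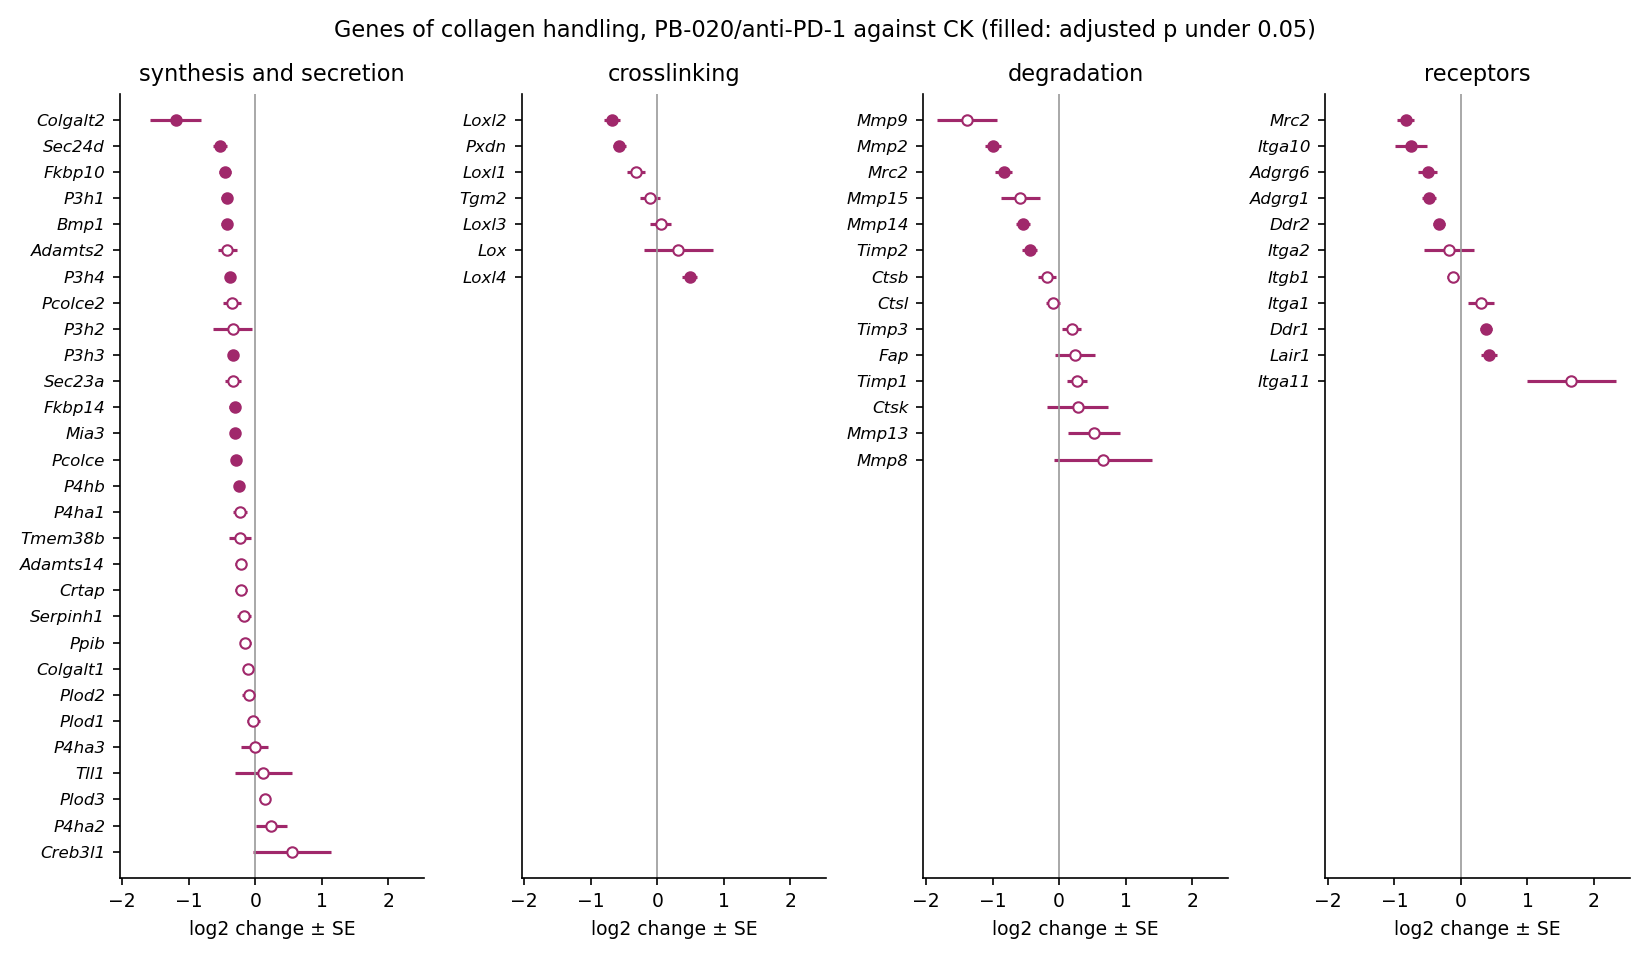
Log2 change with its standard error in PB-020/anti-PD-1 against CK for the genes of collagen synthesis and secretion, crosslinking, degradation and receptors that were tested. Filled points have an adjusted p under 0.05 in edgeR's quasi-likelihood test. The 11 called synthesis genes and the 4 called degradation genes lie left of 0, and Loxl4, Ddr1 and Lair1 lie right of it.

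Markers of cell types were read in the same way, some of which changed and many of which did not. Their part in the collagen results was not tested. The counts of markers called are for both agents against CK, where 9.6% of all genes tested fell and 8.35% rose. Of 12 fibroblast markers, Pdgfra, Pdgfrb and Dcn fell and Postn rose with both agents against CK, at -0.91, -0.57, -1.21 and 1.34. The other 8 were not called, and the median log2 change of the 12 was 0.35, beside -0.003 over all genes tested. In the antibody main effect the same 3 fell and 3 rose, Thy1, Postn and Mfap5, where 12.3% of all genes tested fell and 11.8% rose. The summed fibroblast level was 1140 to 1500 TPM in CK, 1120 to 1290 with PB-020, 836 to 1460 with anti-PD-1 and 907 to 1120 with both agents, and no fibroblast marker stayed at or under 3 counts in every tumor. Of 9 T cell markers in the table, 8 rose with both agents, and their sum was 24.7 to 33.2 TPM in CK, 34.9 to 42.5 with PB-020, 52.0 to 143 with anti-PD-1 and 62.6 to 97.2 with both agents. Of 10 pericyte and smooth muscle markers, Abcc9, Kcnj8 and Mcam fell, and the sum was 149 to 171 TPM in CK and 143 to 166 TPM in PB-020/anti-PD-1. Of 10 endothelial markers Cldn5 fell, of 5 Schwann cell markers tested Pmp22 and Cdh19 fell, of 5 keratinocyte markers tested Krt14 rose, and none of 8 macrophage markers, 10 skeletal muscle markers, 3 adipocyte markers tested or the 1 chondrocyte marker tested was called.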

How the data were processed

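RNA of 12 MC38 tumors was sequenced by the authors on an Illumina HiSeq X instrument as paired reads of 150 bases. The methods name Bowtie2 and RSEM with mm10 or hg19, the submitters' processing notes add HISAT and the build GRCm38.p6, and versions and strand setting are not given in the sources used here. The deposited expected counts are RSEM estimates without normalization, and 91.0% of them are whole numbers. They also deposited FPKM and TPM values, scaled by the authors for gene length and library. The authors' group means were not used.

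Groups and tumor numbers came from the sample labels. Nothing states the source mouse of each tumor, so p-values measure the spread between these tumors, which may in part be technical. Rounded expected counts were filtered with filterByExpr (minimum count 10), which left 13563 genes, scaled by TMM and fitted with edgeR 4.0.16 (quasi-likelihood, robust, 4 group means, all 12 libraries) in R 4.3.3. Tests were two-sided, with Benjamini-Hochberg adjustment over all genes tested. Standard errors were derived from the change and its F statistic. The computation was tested on simulated counts. Lists are described by counts and medians, without set tests.

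All 43 collagen genes matched RefSeq genes of GRCm38.p6. Values are given for the 10 collagen genes of highest mean FPKM, for all called with the antibody or the combination, and for up to 6 genes per direction of each pathway list by smallest p. Genes named beside these were chosen after their values were seen. The collagen genes, lists and tests were chosen with earlier results of these data known. Marker lists were written by hand. Of the listed genes, Mia2, Mmp1a and Trac were not in the table, and Mrc2 and Fap each stand in 2 lists. Precision follows from 16545394 to 17217035 expected counts per library, and intervals do not cover alignment error.

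Alternatives were scaling by library size, DESeq2 1.42.0, limma 3.58.1 on log2(FPKM + 1) and log2(FPKM + 0.1), no filter, a strict filter (at least 50 counts in at least 3 libraries), a fit restricted to the groups compared, a block for the replicate number, and each library left out in turn. Leaving out both tumors that stood apart was added after seeing the data.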

Additional observations from a re-analysis of the deposited data

How the results depend on the processing

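No collagen gene reversed a call under any alternative. Antibody main effect calls (13) stayed between 10 and 16 when each library was left out. They were 9 by limma on log2(FPKM + 1) and 16 by DESeq2. Both counts of 16 include Col6a6, which passed the filter on low counts only through tumors with the antibody. Over all genes (3279) the calls were 2086 to 3690, 3076 and 3447 in these settings. With a fit of only the groups compared, 0 collagen genes were called for anti-PD-1 against CK (9 in the shared fit, adjusted p from 0.058 for Col6a1 in edgeR's test). There were 17 for the combination against CK (10) and 12 for the combination against PB-020 (6), and Col6a5 was among both the 17 and the 12. Over all genes, these fits called 3, 2988 and 1535, beside 1120, 2434 and 455 in the shared fit. Without both tumors that stood apart, the counts were 3 for anti-PD-1 against CK, 12 for the combination against PB-020 and 1 for the combination against anti-PD-1 (0). The last was Col6a5, which was also among the 12 and passed the filter only through tumors with the antibody. Over all genes, these comparisons had 459, 1479 and 9 calls. The cause of these differences was not tested.

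Leaving out each library in turn gave 3 to 13 calls for anti-PD-1 against CK and 5 to 17 for the combination against CK. There were 0 to 11 for the combination against PB-020 and 0 to 1 for the combination against anti-PD-1. The highest count of each range includes Col6a5. Over all genes, these ranges were 137 to 1905, 864 to 3344, 0 to 1269 and 0 to 2.

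Tumors with the same replicate number did not deviate together more than others did. Correlations ran from -0.21 to 0.289 over 18 such pairs and from -0.218 to 0.355 over 36 other pairs. These values gave no sign that the numbers pair the tumors, but with 3 tumors per group they cannot exclude it. With the replicate number as a block, 10 collagen genes were called for the combination and 9 for anti-PD-1 against CK. There were 5 for the combination against PB-020 and 13 for the antibody main effect. Over all 13563 genes tested, these comparisons had 2010, 870, 320 and 2711 calls, beside 2434, 1120, 455 and 3279 without the block. For the combination, the block ended the calls of Col12a1 against CK (adjusted p 0.078 in edgeR's test) and of Col7a1 against PB-020 (0.073) and added Col8a2 against CK (0.016). Of the counts over alternatives, 173 stayed within 1.5 times and 19 did not. Genes at under 10 counts in most tumors, such as Col6a5 and Col6a6, are limited by depth.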
